A study of Mus musculus with 6 samples.

Results

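Of the 33696 genes in the single-cell RNA matrices of mouse liver leukocytes, 8 were followed here because of what they are known to do in holding lymphocytes in a tissue or letting them leave it. The residency genes were Zfp683 (ENSMUSG00000049410), Prdm1 (ENSMUSG00000038151), Cd69 (ENSMUSG00000030156) and Rgs1 (ENSMUSG00000026358). The exit genes were Klf2 (ENSMUSG00000055148), S1pr1 (ENSMUSG00000045092), S1pr4 (ENSMUSG00000044199) and S1pr5 (ENSMUSG00000045087). Each of the 8 symbols had 1 row in the matrices, and none of them was used to set a cell class. Liver mononuclear cells were sorted, 10000 per group, after 12 weeks of feeding, and each group gave 1 RNA library with its matched T cell receptor library. The groups were Ja18-/- mice, which lack the Jα18 segment that the invariant natural killer T (iNKT) cell receptor needs, on a 60% high-fat diet (HFD) with 0.25% hyodeoxycholic acid (HDCA, a bile acid), called iNKT KO HFD+HDCA below; wild-type mice on the same diet with HDCA (WT HFD+HDCA); and wild-type mice on the high-fat diet alone (WT HFD). The labels give CD45+ as the sort in one place and CD4+ in another, and the libraries held 2160 to 3490 B cells each, so CD45+ was taken as the sort. The number of mice behind each library, their strain, sex and age are not given in the labels, all 3 groups ate the high-fat diet, and a normal diet is not analysed here.

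Lymphocytes leave a tissue by following sphingosine-1-phosphate (S1P), a lipid that is abundant in blood and lymph and scarce in tissue, through S1P receptors on their surface. The zinc finger factor KLF2 drives transcription of S1pr1, the CD69 protein binds S1PR1 and takes it from the surface, and the RGS1 protein shortens signals of G protein-coupled receptors, S1P and chemokine receptors among them. Hobit, encoded by Zfp683, and Blimp1, encoded by Prdm1, are related repressors that in mice keep the exit genes down in resident memory T cells, liver iNKT cells and liver type 1 innate lymphoid cells (ILC1), which stay in the liver sinusoids, whereas conventional natural killer (NK) cells circulate and use S1PR5 to leave bone marrow and lymph nodes.

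The classes were set from receptor contigs and marker transcripts. A cell whose alpha contig joined TRAV11 or TRAV11D to the TRAJ18 segment was called iNKT. A cell with an alpha and a beta contig, but not that join, was counted as another αβ T cell. NK cells and ILC1 had no contig and no Cd3d or Cd3e UMI (unique molecular identifier, 1 captured transcript). Both needed at least 2 UMIs of Ncr1, Klrb1c, Klre1 and Klrk1 together, with at least 1 from Ncr1 or Klrb1c. At most 1 UMI of B cell, monocyte or dendritic cell genes was allowed. The 2 classes were told apart by Eomes, Itga2 and Klra genes against Itga1, Cd200r1, Cxcr6 and 3 further ILC1 genes. Other αβ T cells were further divided into antigen-experienced and naive cells by marker transcripts. Among kept cells there were 1 iNKT cell, 1826 other αβ T cells, 482 NK cells and 313 ILC1 in the iNKT KO HFD+HDCA library; 450, 2610, 809 and 175 in WT HFD+HDCA; and 332, 1839, 492 and 128 in WT HFD. The single iNKT KO cell enters no value below. Median depth per kept cell was 5130 UMIs in iNKT KO HFD+HDCA, 5462.5 in WT HFD+HDCA and 5626 in WT HFD, and libraries shared between 64 and 87 barcodes of kept cells per pair. Zbtb16, the lineage factor of iNKT cells, was not used to set them and fitted the call. In iNKT cells of WT HFD+HDCA and WT HFD it was at 148 and 131 UMIs per 1e6 UMIs of the class (CPM). Their other αβ T cells held 7.11 and 6.46 CPM. Eomes was at 4.03 to 15.6 CPM in ILC1 against 292 to 358 CPM in NK cells, but it helped set both classes. Its gap is therefore partly fixed by the rule and is no check of it. The division was not perfect. Cd3g, a T cell transcript that the rule did not use, stood at 68.1 CPM in ILC1 of iNKT KO HFD+HDCA, 18.2 in WT HFD+HDCA and 20.1 in WT HFD. The labels name a 3′ kit although receptor contigs were also made, so the transcript end that was counted is not settled. UMIs were given no scale per length, so levels are compared between cells and never between genes.

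**Figure D1:**
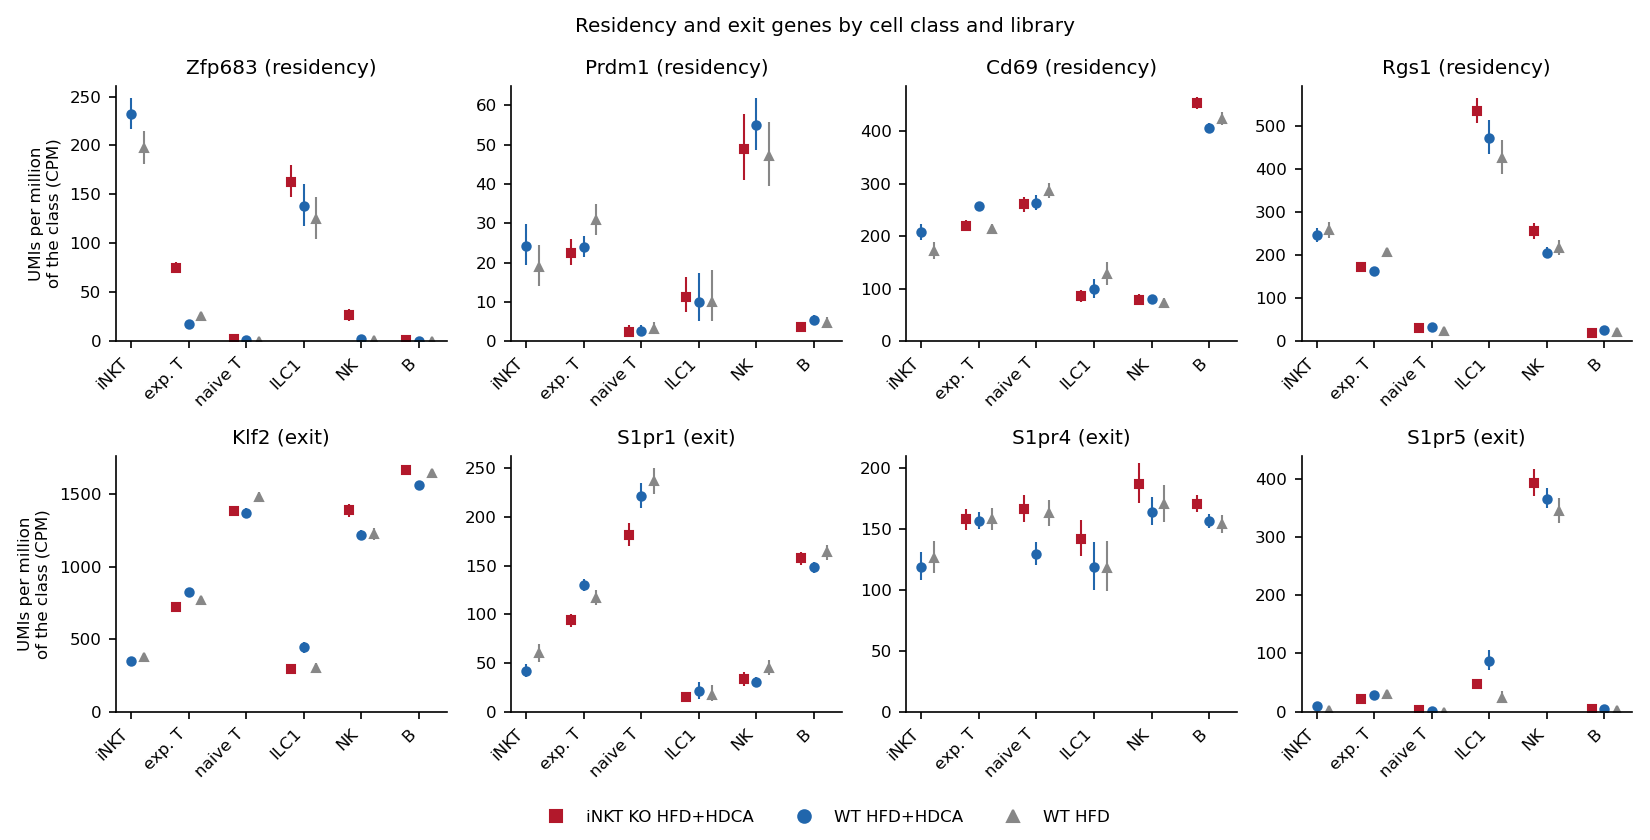
Level of each of the 8 genes (panels) in CPM by cell class, 1 point per library with its exact Poisson 95% interval; red squares iNKT KO HFD+HDCA, blue circles WT HFD+HDCA, grey triangles WT HFD. Zfp683 was highest in iNKT cells and ILC1, Klf2 lowest in those same classes, and S1pr5 at 344.9 to 393.7 CPM in NK cells against at most 87.7 CPM in the other classes drawn.

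iNKT cells were set against other αβ T cells first. Zfp683 and Rgs1 were higher in iNKT cells, Klf2, S1pr1, S1pr4, S1pr5 and also Cd69 were lower, and Prdm1 did not pass the test. Class sums of each library were compared with edgeR's quasi-likelihood test with the library as a block, at a Benjamini-Hochberg adjusted p of 0.05 over all 11448 genes tested. At that threshold 26.3% of all genes tested passed, 12.5% higher and 13.8% lower in iNKT cells, so passing by itself sets no gene apart. The p-values measure how alike the class difference was in libraries that differ in diet and genotype, with iNKT cells in only the wild-type libraries. In sums over cells, fewer expressing cells and less RNA per cell cannot be told apart; the shares of cells below bear on this in part.

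Among the residency genes, Zfp683, which encodes Hobit, was at 232.1 CPM (exact Poisson 95% interval 217 to 248) in iNKT cells of WT HFD+HDCA and 197.4 CPM (181 to 214) in those of WT HFD, against 43.1 CPM in other αβ T cells of iNKT KO HFD+HDCA, 11.7 in WT HFD+HDCA and 14.3 in WT HFD. Every iNKT value lay above every value in other αβ T cells, and the log2 fold change was 3.75 ± 0.294 (SE; adjusted p = 1.558e-07, edgeR's quasi-likelihood test). Without the library block the fold change was 3.11 on the log2 scale. After each cell was thinned to 2000 UMIs, 34.9% of iNKT cells in WT HFD+HDCA and 27.4% in WT HFD had a Zfp683 UMI, against 3.31% and 4.82% of experienced αβ T cells and 0.0289% and 0% of B cells of the same libraries, where 0 cells allow a share of up to 0.141%. At full depth the iNKT shares were 72.9% and 67.5%, so the thinned shares count cells with a UMI, not cells that express the gene.

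Rgs1 stood at 246.5 and 257.0 CPM in iNKT cells of WT HFD+HDCA and WT HFD, against 117.4, 116.1 and 127.3 CPM in other αβ T cells of iNKT KO HFD+HDCA, WT HFD+HDCA and WT HFD. The ranges did not overlap and the log2 fold change was 0.99 ± 0.0874 (adjusted p = 5.265e-07, edgeR's quasi-likelihood test). Cd69 went the other way: 208.3 and 172.3 CPM in iNKT cells, against 237.1, 258.1 and 252.0 CPM in other αβ T cells, a log2 fold change of -0.55 ± 0.0901 (adjusted p = 0.0002628, edgeR's quasi-likelihood test). Cd69 transcript was also no mark of residency across the other classes, since B cells carried it in 49.3% to 54.0% of thinned cells and naive T cells in 34.5% to 36.9%. Prdm1, the transcript of Blimp1, was low in both classes, at 24.1 and 18.8 CPM in iNKT cells against 13.7 to 18.5 CPM in other αβ T cells, with a log2 fold change of 0.23 (adjusted p = 0.3183, edgeR's quasi-likelihood test).

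Of the exit genes, Klf2 was at 349.8 and 377.4 CPM in iNKT cells of WT HFD+HDCA and WT HFD, against 973.6, 980.8 and 1046.1 CPM in other αβ T cells of iNKT KO HFD+HDCA, WT HFD+HDCA and WT HFD (log2 fold change -1.60 ± 0.122, adjusted p = 1.158e-07, edgeR's quasi-likelihood test). After thinning, 32.7% and 33.1% of iNKT cells had a Klf2 UMI, against 72.1% to 77.6% of other αβ T cells. The stretches upstream of Klf2 and S1pr5 are shown because these 2 transcripts were found together in single cells more often than their shares predict (below), and because KLF factors bind CACCC boxes. They are the 250 bases before the annotated start in RefSeq on GRCm38.p6, read 5′ to 3′ on the strand of the gene, with CACCC, or GGGTG where the box lies on the other strand, in capitals. The Klf2 stretch is chr8:72318812-72319061 on the plus strand and holds 1 box, whose first base lies 19 bases before the start.
Klf2: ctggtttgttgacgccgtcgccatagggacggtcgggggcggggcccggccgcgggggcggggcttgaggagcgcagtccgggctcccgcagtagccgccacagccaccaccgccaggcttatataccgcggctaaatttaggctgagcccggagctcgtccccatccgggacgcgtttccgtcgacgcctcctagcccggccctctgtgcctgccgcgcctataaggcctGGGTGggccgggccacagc
The S1pr5 stretch is chr9:21248444-21248693 on the minus strand and holds 2 boxes, starting 216 and 128 bases before the start.
S1pr5: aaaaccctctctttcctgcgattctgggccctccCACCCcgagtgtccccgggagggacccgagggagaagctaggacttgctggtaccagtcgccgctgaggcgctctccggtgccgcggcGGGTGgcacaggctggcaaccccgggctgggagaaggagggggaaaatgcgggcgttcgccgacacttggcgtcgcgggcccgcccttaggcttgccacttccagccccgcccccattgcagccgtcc
Such a box is common: 52.0% of 32851 upstream stretches of the same length held at least 1 on either strand, as did 3 of the 4 members that the RefSeq table matched (Klf2, S1pr4 and S1pr5, but not Prdm1). Both stretches are rich in G and C, at 71.2% for Klf2 and 69.2% for S1pr5. A match in this window is a description of the letters and not evidence of binding.

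S1pr1, the receptor through which T cells reach lymph and blood, was at 41.5 and 60.0 CPM in iNKT cells of WT HFD+HDCA and WT HFD, against 125.8, 157.7 and 163.9 CPM in other αβ T cells of iNKT KO HFD+HDCA, WT HFD+HDCA and WT HFD. This was the widest difference among the exit genes in this contrast, with a log2 fold change of -1.80 ± 0.115 (adjusted p = 1.944e-08, edgeR's quasi-likelihood test). S1pr4, a receptor found on most blood leukocytes, differed far less: 118.8 and 126.3 CPM in iNKT cells against 146.4 to 158.5 CPM in other αβ T cells (log2 fold change -0.41 ± 0.0705, adjusted p = 0.0004347, edgeR's quasi-likelihood test). S1pr5 was scarce in both, at 10.2 and 3.14 CPM in iNKT cells against 12.8 to 18.8 CPM in other αβ T cells. Its log2 fold change was -1.38 ± 0.411 (adjusted p = 0.02104, edgeR's quasi-likelihood test), and without the WT HFD library it was -0.89 and no longer passed. Without the WT HFD+HDCA library it was -2.32.

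Related genes were taken from lists written down for this comparison. Of 21 residency partners tested, 11 were higher and 4 lower in iNKT cells, with a median log2 fold change of 0.57 against -0.01 over all genes. Itga1, the alpha chain of a collagen-binding integrin of liver-resident cells, was higher by 2.75 ± 0.194 on the log2 scale, and Cxcr6, a chemokine receptor that holds iNKT cells in the sinusoids, by 2.45 ± 0.0819 (adjusted p = 5.092e-08 and 3.016e-11, edgeR's quasi-likelihood test). Nr4a2, a nuclear receptor induced by antigen receptor signals, was lower at -2.41 ± 0.170 (adjusted p = 5.148e-08, same test). Of 19 circulation partners, 3 were higher and 9 lower (median -0.78), with Ccr7 at -4.48 and Il6ra at -3.40 on the log2 scale. The S1P metabolism and signalling list moved little: 1 gene was higher, 2 were lower and 16 of 19 did not pass (median -0.01). The 3 were the ceramide synthase genes Cers4 at 0.27 and Cers6 at -2.02, and Gna12, which encodes a G protein alpha subunit, at -0.79. Among 7 other Rgs genes tested, 3 were higher and 2 lower (median 0.04), with Rgs18 at 1.52, Rgs16 at -3.66 and Rgs10 at -1.80, so the other Rgs genes did not move as one. Of 19 immediate early genes, which rise when cells are stressed during isolation, 3 were higher and 7 lower (median -0.18), with the phosphatase genes Dusp1 at 1.11 and Dusp2 at 0.73 and with Ier3 at -1.13.

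Other αβ T cells include naive cells, so iNKT cells were also set against the experienced cells alone. Here 17.6% of 12513 genes tested passed, 8.02% higher and 9.59% lower in iNKT cells. The directions held for the 7 genes that had passed, and again Prdm1 did not pass (log2 fold change -0.34, adjusted p = 0.1588, edgeR's quasi-likelihood test). Zfp683 remained higher by 3.12 ± 0.292 on the log2 scale (adjusted p = 6.133e-07, edgeR's quasi-likelihood test); without the library block this was 2.43. Klf2 was lower at -1.16 ± 0.117 and S1pr1 at -1.35 ± 0.131 (adjusted p = 1.426e-06 and 9.796e-07, edgeR's quasi-likelihood test). The difference in Rgs1 was smaller than against all other αβ T cells, at 0.48 ± 0.109 (adjusted p = 0.004483, same edgeR test). Cxcr6, Ccr7 and Lef1 helped set the experienced cells and were left out of the lists here. Of 20 residency partners, 8 were higher and 4 lower (median 0.13), with Itga1 at 2.08, Cdh1 (E-cadherin) at 1.86 and Nr4a2 at -2.77. Of 17 circulation partners 1 was higher and 9 lower (median -0.56), with Itga4 at -2.74 and Il6ra at -2.30. In the S1P list 0 genes were higher and 2 of 19 lower, Cers6 at -1.68 and Gna12 at -0.78. Other Rgs genes were higher for 2 and lower for 2 of 7, with Rgs2 at 0.82, Rgs16 at -4.25 and Rgs10 at -0.98, and immediate early genes for 2 and 4 of 19, with Dusp1 at 1.001, Dusp2 at 0.66 and Ier3 at -1.64. Without the WT HFD+HDCA library, Cd69, Rgs1 and S1pr4 no longer passed (adjusted p = 0.1079, 0.1069 and 0.1558, edgeR's quasi-likelihood test), and S1pr5 stood at -3.02 in place of -2.02.

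**Figure D2:**
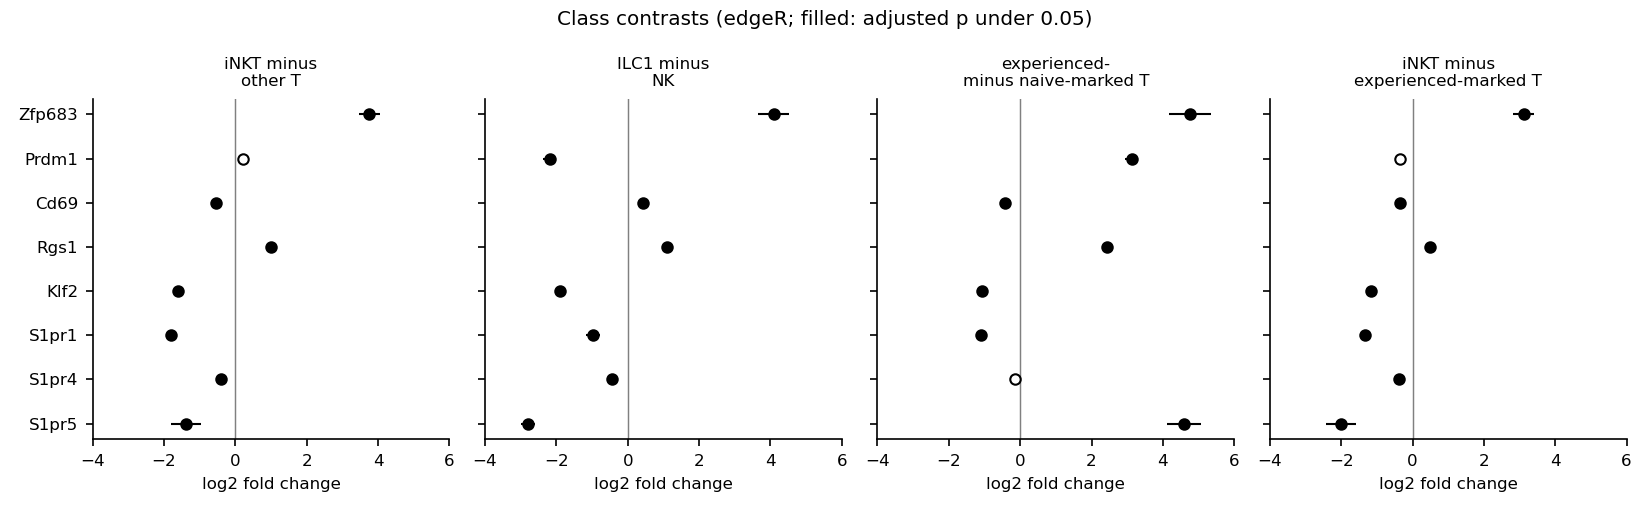
Log2 fold change of each of the 8 genes in the 4 class contrasts, with its standard error as a bar, from edgeR's quasi-likelihood fit to class sums per library. Klf2 and S1pr1 lay below 0 and Rgs1 and Zfp683 above 0 in all 4 contrasts, whereas S1pr5 was above 0 in experienced against naive T cells and below 0 in the others.

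ILC1 were next set against NK cells, the circulating lymphocytes nearest to them. All 8 genes passed the test, where 21.5% of 11448 genes did (11.8% higher and 9.77% lower in ILC1). Zfp683, Cd69 and Rgs1 were higher in ILC1, and Prdm1, Klf2, S1pr1, S1pr4 and S1pr5 were lower.

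Zfp683 was at 162.9 CPM in ILC1 of iNKT KO HFD+HDCA, 138.2 in WT HFD+HDCA and 124.5 in WT HFD, against 26.2, 1.63 and 1.04 CPM in the NK cells of those libraries. ILC1 were above NK cells in all 3 libraries, by a log2 fold change of 4.10 ± 0.432 (adjusted p = 4.728e-06, edgeR's quasi-likelihood test). The size rests on the knockout library, whose NK cells held more of it: without that library the log2 fold change was 6.53, without WT HFD+HDCA it was 3.46, and DESeq2 gave 5.10. In thinned cells 22.7%, 22.7% and 19.5% of ILC1 had a Zfp683 UMI, against 3.93%, 0.374% and 0 of 487 NK cells, which allows a share of up to 0.616%. Rgs1 was at 535.5, 472.5 and 425.6 CPM in ILC1 of iNKT KO HFD+HDCA, WT HFD+HDCA and WT HFD, against 255.6, 204.4 and 216.4 CPM in NK cells (log2 fold change 1.11 ± 0.0809, adjusted p = 1.057e-07, edgeR's quasi-likelihood test). No other of the 4 classes reached these Rgs1 levels, and 43.0% to 55.5% of thinned ILC1 had an Rgs1 UMI, against 2.22% to 2.70% of B cells.

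Prdm1 stood apart from Zfp683. It was at 11.3, 9.93 and 10.1 CPM in ILC1 of iNKT KO HFD+HDCA, WT HFD+HDCA and WT HFD, against 48.8, 54.9 and 47.1 CPM in NK cells, a log2 fold change of -2.19 ± 0.189 (adjusted p = 6.254e-07, edgeR's quasi-likelihood test). The pair of related repressors thus marked opposite classes among these innate cells. Cd69 was at 85.5, 99.3 and 127.2 CPM in ILC1, against 79.0, 79.6 and 72.4 CPM in NK cells (log2 fold change 0.41 ± 0.111, adjusted p = 0.01354, edgeR's quasi-likelihood test). That difference was carried by WT HFD: without it the log2 fold change was 0.24 and did not pass (adjusted p = 0.1442, edgeR's quasi-likelihood test), nor did it with stricter marker rules (0.20, adjusted p = 0.4267).

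The S1P receptors differed between the innate classes in size. S1pr5 was at 47.2, 87.7 and 23.8 CPM in ILC1 of iNKT KO HFD+HDCA, WT HFD+HDCA and WT HFD, against 393.7, 366.4 and 344.9 CPM in NK cells. NK cells were above ILC1 in every library, and the log2 fold change was -2.79 ± 0.206 (adjusted p = 1.184e-07, edgeR's quasi-likelihood test), or -2.01 with stricter marker rules. Monocytes also held S1pr5, at 42.9 to 68.3 CPM, and B cells 3.41 to 4.24 CPM. Klf2 was at 294.0, 444.4 and 300.2 CPM in ILC1 of iNKT KO HFD+HDCA, WT HFD+HDCA and WT HFD, against 1389, 1221 and 1225 CPM in NK cells (log2 fold change -1.89 ± 0.111, adjusted p = 1.169e-08, edgeR's quasi-likelihood test). S1pr1 was low in both, at 14.9 to 20.7 CPM in ILC1 against 30.2 to 44.7 CPM in NK cells (log2 fold change -0.98 ± 0.192, adjusted p = 0.001561, edgeR's quasi-likelihood test). S1pr4 was at 118.1 to 141.9 CPM in ILC1 against 164.2 to 187.2 CPM in NK cells, and its log2 fold change of -0.43 ± 0.0720 was close to that between iNKT and other αβ T cells, though the 2 differences were not compared by a test.

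With Itga1 and Cxcr6, which set the classes, left out, 7 of 19 residency partners were higher and 3 lower in ILC1 (median 0.25, against 0.00 over all genes). They were led by Tnfsf10, which encodes the death ligand TRAIL, at 3.93 ± 0.187, Cd101 at 3.55 ± 0.589 and Ahr, the aryl hydrocarbon receptor, at 2.69 ± 0.259 on the log2 scale. Of 19 circulation partners 1 was higher and 10 were lower (median -0.65), with Itgam at -3.96, Zeb2 at -3.04 and Cx3cr1 at -2.81. In the S1P list 3 of 19 were higher and 5 lower, among them Plpp2, which encodes a lipid phosphate phosphatase, at -1.96, Arrb1 (a beta-arrestin) at 1.45 and Cers2 at -0.57. Rgs18 was higher by 1.86, Rgs10 by 1.03 and Rgs16 lower at -3.36, and of 7 other Rgs genes 3 were higher and 1 lower (median 0.11). Immediate early genes were higher for 2 and lower for 7 of 19 (median -0.13), with Nfkbia at 0.52, Dusp2 at -0.98 and Ier2 at -0.80.

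Within the other αβ T cells, experienced cells (995, 1639 and 958 in iNKT KO HFD+HDCA, WT HFD+HDCA and WT HFD) were set against naive cells (686, 759 and 758). This was the widest contrast, with 45.7% of 12513 genes past the threshold, 24.9% higher and 20.9% lower in experienced cells, so a pass says little about any single gene. Among the residency genes Zfp683, Prdm1 and Rgs1 were higher and Cd69 lower in experienced cells. Zfp683 was at 74.9, 17.3 and 25.2 CPM in experienced cells of iNKT KO HFD+HDCA, WT HFD+HDCA and WT HFD, against 1.82, 1.13 and 0.557 CPM in naive cells (log2 fold change 4.77 ± 0.586, adjusted p = 3.315e-06, edgeR's quasi-likelihood test). Prdm1 was at 22.4, 24.1 and 30.8 CPM against 2.22, 2.46 and 2.97 CPM, higher by 3.13 ± 0.188 on the log2 scale, and Rgs1 at 171.2, 162.7 and 207.0 CPM against 30.9, 32.1 and 24.5 CPM, higher by 2.44 ± 0.117 (adjusted p = 3.423e-10 and 1.851e-11, edgeR's quasi-likelihood test). Neither gene's ranges overlapped. Cd69 was at 219.9, 256.7 and 213.2 CPM in experienced cells against 260.7, 263.6 and 287.0 CPM in naive cells (-0.42 ± 0.0804, adjusted p = 0.000348, same edgeR test).

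The exit genes split in this contrast. Klf2 was at 721.8, 824.0 and 769.9 CPM in experienced cells of iNKT KO HFD+HDCA, WT HFD+HDCA and WT HFD, against 1388, 1371 and 1483 CPM in naive cells, and S1pr1 at 93.7, 129.7 and 117.3 CPM against 181.7, 221.5 and 236.9 CPM. Both were lower by about the same measure, with log2 fold changes of -1.06 ± 0.0948 and -1.09 ± 0.0891 (adjusted p = 6.101e-08 and 1.921e-08, edgeR's quasi-likelihood test). S1pr5 was higher, at 21.2, 28.8 and 30.6 CPM in experienced cells against 2.22, 0.756 and 0 CPM in naive cells, the last of which allows up to 0.557 CPM (log2 fold change 4.59 ± 0.487, adjusted p = 5.55e-07, edgeR's quasi-likelihood test); its size hangs on a few naive UMIs, at 6.02 without iNKT KO HFD+HDCA and 3.92 without WT HFD. S1pr4 did not pass, at -0.13 (adjusted p = 0.1278, edgeR's quasi-likelihood test), but did without WT HFD+HDCA, at -0.26 (adjusted p = 0.02754, same edgeR test). Cxcr6, a residency partner, and Ccr7 and Lef1, circulation partners, helped set these classes and were left out of the lists. Of 20 residency partners 14 were higher and 3 lower (median 1.23), led by Itga1 at 7.24, Xcl1 at 6.01 and Bhlhe40 at 4.79. The circulation partners that remained did not go down as a group: 10 of 17 were higher and 6 lower (median 1.98). The higher ones were led by Klrg1 at 7.40 and the T-box factor Tbx21 at 6.26, both of effector cells, and Emp1 at 4.54. In the S1P list 7 of 19 were higher and 4 lower (median 0.07), with Gnaq at 1.15, Cers4 at 1.12 and Plpp2 at 1.10. Of 7 other Rgs genes 4 were higher and 2 lower (median 0.36), with Rgs16 at 3.08, Rgs18 at 3.00 and Rgs3 at 1.87. Immediate early genes were higher for 6 and lower for 10 of 19 (median -0.12), with Ier3 at 2.92, Atf3 at 1.74 and Jun at -1.39.

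Ranked by the mean over libraries, each gene had its own order of classes. Zfp683 ran iNKT, ILC1, other αβ T and NK, with only the last pair overlapping in range. Prdm1 ran NK, iNKT, other αβ T and ILC1, and Cd69 ran other αβ T, iNKT, ILC1 and NK, each with no overlap between neighbours. In Rgs1 ILC1 led, iNKT and NK cells overlapped next, and other αβ T cells came last. Klf2 ran NK, other αβ T, then iNKT cells and ILC1, whose ranges overlapped. S1pr1 ran other αβ T, then iNKT and NK cells, which overlapped, then ILC1. For S1pr4 the order was NK, other αβ T, then ILC1 and iNKT cells with overlapping ranges, and for S1pr5 it was NK, ILC1, other αβ T and iNKT cells with no overlap.

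Co-detection was then counted in single cells, each thinned to 2000 UMIs, as the odds ratio of finding 2 transcripts in the same cell. A value under 1 means that the pair was found together less often than the share of each predicts. Cells of a library share its ambient RNA, the odds ratios carry no test, and an alternative depth moved several of the counts of pairs. With at least 5 cells expected in every library as the condition, 6 of 10 residency-by-exit pairs in iNKT cells were under 1 in both wild-type libraries and 0 above 1 in both. In experienced T cells 7 of 14 pairs were under 1 and 1 was above 1 in all 3 libraries, in ILC1 3 and 0 of 5, and in NK cells 2 and 1 of 10. Pairs of other genes were not counted, so these counts have no background share to be read against. The condition is also easier to meet in the 2 libraries with iNKT cells than in 3, so the classes cannot be ranked by them.

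Zfp683 and Klf2 were found together less often than predicted in iNKT cells, experienced T cells and ILC1 of every library that held them. NK cells are not counted here. In those of iNKT KO HFD+HDCA, Klf2 was alike in cells with and without Zfp683, at 1452 against 1381 CPM at full depth. In iNKT cells they shared 41 cells of WT HFD+HDCA where 51.0 were expected and 20 cells of WT HFD where 30.2 were expected, giving odds ratios of 0.63 and 0.47. In experienced T cells they shared 27 cells in iNKT KO HFD+HDCA where 66.5 were expected, 26 in WT HFD+HDCA where 36.4 were expected and 23 in WT HFD where 30.7 were expected, for odds ratios of 0.18, 0.44 and 0.48. ILC1 gave 13 cells where 21.1 were expected, 12 where 17.5 were and 7 where 8.01 were in those libraries, odds ratios of 0.45, 0.47 and 0.79. All 8 values were below 1, the lowest in experienced T cells of iNKT KO HFD+HDCA. In levels, experienced T cells with a Zfp683 UMI held 310 CPM of Klf2 in iNKT KO HFD+HDCA and 583 CPM in WT HFD+HDCA, against 866 and 894 CPM in cells without one. In WT HFD the level did not differ, at 880 against 871 CPM (ratio 1.01, 95% interval 0.798 to 1.26), although fewer of the cells had a Klf2 UMI.

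Rgs1 and Klf2 behaved alike in the T lineage. They shared 30 iNKT cells of WT HFD+HDCA where 48.3 were expected and 26 of WT HFD where 37.4 were expected, odds ratios of 0.40 and 0.48. In experienced T cells the odds ratios were 0.33, 0.54 and 0.41 in iNKT KO HFD+HDCA, WT HFD+HDCA and WT HFD, and in ILC1 0.80, 0.61 and 0.49. NK cells were less uniform, at 0.67, 0.83 and 1.03. Rgs1 with S1pr1 gave 0.46 and 0.27 in iNKT cells of WT HFD+HDCA and WT HFD, and 0.59, 0.79 and 0.58 in experienced T cells of iNKT KO HFD+HDCA, WT HFD+HDCA and WT HFD. Cd69 did not follow this pattern with Klf2. That pair gave 1.08, 1.10 and 1.84 in experienced T cells of iNKT KO HFD+HDCA, WT HFD+HDCA and WT HFD. In iNKT cells of WT HFD+HDCA and WT HFD it gave 0.81 and 1.20. Cd69 with S1pr1 was under 1 in iNKT cells of both wild-type libraries, but above 1 in other αβ T cells of all 3 libraries. In experienced T cells alone that pair was neither under 1 nor above 1 in all 3 libraries. The other αβ T cells include naive cells, which held more Cd69 and more S1pr1 than experienced cells. The part of this mix in the values above 1 was not tested. With S1pr5, as with S1pr4, Cd69 was under 1 in every library of experienced T and NK cells. The values with S1pr5 were 0.28, 0.67 and 0.52 in experienced T cells and 0.71, 0.85 and 0.66 in NK cells.

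Among the exit genes, Klf2 kept company with S1pr1 and with S1pr5. Other pairs of exit genes are not described here. Klf2 and S1pr1 gave odds ratios of 7.80 and 3.42 in iNKT cells of WT HFD+HDCA and WT HFD, and 4.09, 2.51 and 2.29 in experienced T cells of iNKT KO HFD+HDCA, WT HFD+HDCA and WT HFD. Klf2 and S1pr5 gave 4.67, 3.25 and 3.17 in NK cells of those 3 libraries and 6.84, 4.46 and 4.76 in experienced T cells. In ILC1 of iNKT KO HFD+HDCA, 22 of 25 cells with an S1pr5 UMI also had Klf2, an odds ratio of 21.9, and in ILC1 of WT HFD+HDCA it was 8.04. Zfp683 and Rgs1, both residency genes, were above 1 as well, at 1.27 and 1.69 in iNKT cells, 2.94, 1.23 and 1.42 in experienced T cells and 2.42, 1.76 and 1.46 in ILC1, libraries in the same order. Zfp683 and Cd69 did not go together in this way. The Cd69 level in cells with over cells without a Zfp683 UMI was 0.646 (0.465 to 0.885) and 0.696 (0.433 to 1.08) in iNKT cells. It was 1.06, 0.589 and 0.83 in experienced T cells and 1.01, 1.10 and 0.412 in ILC1.

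Cells were also sorted by whether they held any residency transcript, any exit transcript, both or neither. Residency transcripts without an exit transcript were found in 41.2% and 35.8% of iNKT cells of WT HFD+HDCA and WT HFD, in 39.3%, 29.1% and 36.7% of ILC1 of iNKT KO HFD+HDCA, WT HFD+HDCA and WT HFD, and in 3.28%, 4.73% and 4.11% of NK cells. Exit transcripts alone were found in 16.3% and 18.4% of iNKT cells, 18.5%, 25.6% and 20.3% of ILC1 and 229 of 458, 397 of 803 and 242 of 487 NK cells, close to 1 in 2 each. Both kinds occurred in 32.4% and 31.3% of iNKT cells, 27.9%, 32.0% and 29.7% of ILC1 and 43.4%, 40.7% and 40.7% of NK cells, so cells with transcripts of both were common in every class. The odds ratio of any residency with any exit gene was 0.49 and 0.69 in iNKT cells, 0.55, 0.57 and 0.53 in ILC1, 0.56, 0.81 and 0.69 in experienced T cells and 0.87, 0.89 and 1.10 in NK cells, the last of these above 1 in WT HFD. Naive T cells gave 1.72, 1.28 and 1.31, and B cells, which carry Cd69 and Klf2, gave 1.09, 1.42 and 1.22.

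**Figure D3:**
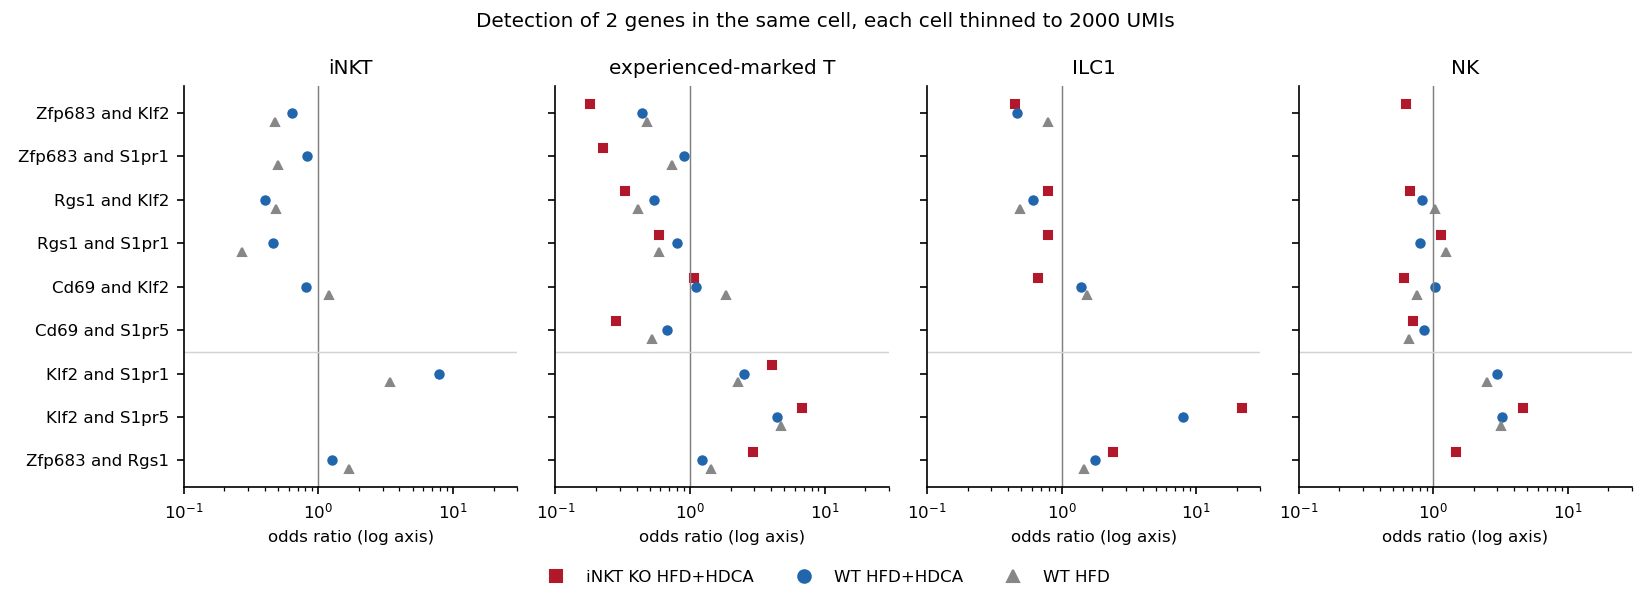
Odds ratio of co-detection (log axis) for 6 residency-by-exit pairs, and below the line 3 pairs of the same kind, in each class and library after thinning to 2000 UMIs per cell, where a value of 1 is what the separate shares predict. Zfp683 with Klf2 was under 1 in iNKT cells, experienced T cells and ILC1 of every library that held them.

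The T cells that held Zfp683 were then described at full depth. A Zfp683 UMI was found in 243 other αβ T cells of iNKT KO HFD+HDCA, in 147 from WT HFD+HDCA and in 123 from WT HFD. Itga1 was found in 66.7%, 36.7% and 56.1% of them, against 6.0%, 7.80% and 6.47% of the cells without Zfp683. Of the 243 cells in iNKT KO HFD+HDCA, 133 had neither Cd4 nor Cd8 transcript, 66 had Cd8 and 41 Cd4. In WT HFD+HDCA 48 of 147 had neither, 59 had Cd8 and 37 Cd4, and in WT HFD 23 of 123 had neither, 51 had Cd8 and 46 Cd4. Among experienced T cells with neither co-receptor transcript, Zfp683 was at 181.8 CPM in iNKT KO HFD+HDCA, 30.9 in WT HFD+HDCA and 21.7 in WT HFD.

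Cells of the same receptor clonotype are not independent of each other. In iNKT KO HFD+HDCA 128 of the 243 cells with Zfp683 were in clonotypes of 2 or more cells, in WT HFD+HDCA 27 of 147 and in WT HFD 57 of 123. Experienced T cells in such clonotypes held 166 CPM of Zfp683 in iNKT KO HFD+HDCA and 42.1 in WT HFD, against 37.4 and 17.9 CPM in cells of a clonotype seen once. WT HFD+HDCA ran the other way, at 13.8 against 18.5 CPM. S1pr5 was higher in the repeated clonotypes of all 3 libraries, at 42.1, 59.9 and 56.3 CPM in iNKT KO HFD+HDCA, WT HFD+HDCA and WT HFD against 12.7, 18.3 and 19.5 CPM, and so was Rgs1, at 302, 215 and 314 CPM against 118, 145 and 160 CPM.

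The largest clonotype of each library had a state of its own. In iNKT KO HFD+HDCA it held 39 cells, 38 of them with neither co-receptor transcript, with Zfp683 at 450 CPM (95% interval 372 to 541), Rgs1 at 474 and Klf2 at 27.4 CPM, and no S1pr1 or S1pr5 UMI, which allows up to 11.7 CPM of each. These 39 cells gave 115 of the 632 Zfp683 UMIs of other αβ T cells there, 18.2%. In WT HFD+HDCA the largest clonotype had 29 cells, all with Cd8, with no Zfp683 UMI, which allows up to 19.3 CPM, 1508 CPM of Klf2 and 116 CPM of Rgs1. In WT HFD it had 77 cells, 76 with Cd8, with Zfp683 at 2.74, Rgs1 at 570 and Klf2 at 311 CPM. The 3 largest clonotypes thus held high Zfp683 with low Klf2, high Klf2 without Zfp683, and high Rgs1 without much of either, each in 1 library.

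NK cells were divided into mature cells, with a Klrg1 or Itgam UMI and no Cd27 UMI (315, 466 and 272 cells in iNKT KO HFD+HDCA, WT HFD+HDCA and WT HFD) and immature cells with the reverse (35, 86 and 49). S1pr5 was at 479, 493 and 436 CPM in mature against 101, 141 and 119 CPM in immature cells, and Klf2 at 1611, 1526 and 1422 CPM against 576, 702 and 628 CPM. Prdm1 followed them, at 57.8, 69.0 and 55.2 CPM against 12.3, 21.9 and 27.7 CPM. Cd69 was lower in mature cells, at 64.3, 62.8 and 62.0 CPM against 101, 95.6 and 88.3 CPM. For these 4 genes the mature values lay on 1 side of the immature values in all 3 libraries. How many of all genes separate in this way was not counted, so the separation by itself sets none of them apart. Levels of the other members in this split are not listed here.

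**Figure D4:**
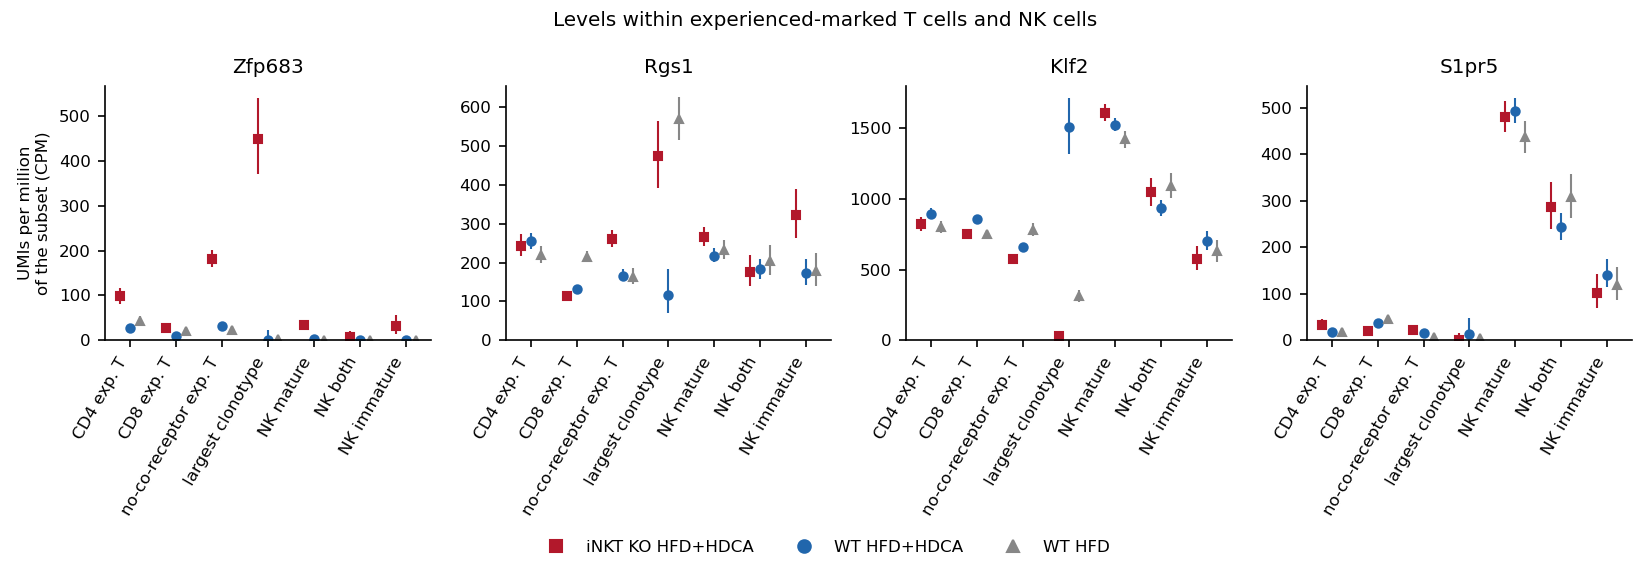
Level of Zfp683, Rgs1, Klf2 and S1pr5 in experienced T cells by co-receptor transcript and in the largest clonotype, and in NK cells with mature markers, both kinds or immature markers, in CPM of the subset with exact Poisson 95% intervals, 1 point per library. Zfp683 in T cells with neither co-receptor transcript stood at 181.8 CPM in iNKT KO HFD+HDCA against 30.9 in WT HFD+HDCA, and S1pr5 was higher in mature than in immature NK cells of every library.

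The diets were compared by setting WT HFD+HDCA over WT HFD. With 1 library per group the difference has no replicate check and no test: a gene was called past a 1.5-fold ratio of CPM with at least 20 UMIs in the 2 sums, and the intervals are conditional exact 95% intervals that cover counting error only. Most of the 8 genes with enough UMIs stayed within 1.5-fold in every class. Called were 1 of 8 in iNKT cells and 1 of 8 in ILC1, S1pr5 in both, and 0 in other αβ T cells, experienced T cells, naive T cells and NK cells. Of all genes with enough UMIs, 9.66% were called in iNKT cells, 14.1% in ILC1, 9.17% in other αβ T cells, 9.80% in experienced T cells, 8.29% in naive T cells and 8.34% in NK cells. One call in 8 genes is near that background.

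S1pr5 in ILC1 had 87.7 CPM in WT HFD+HDCA, from 106 UMIs in 34 cells, against 23.8 CPM in WT HFD, from 26 UMIs in 14 cells, a ratio of 3.69 (2.38 to 5.90). In thinned cells the ratio was 2.48. ILC1 with S1pr5 carried more Klf2 than ILC1 without it, at 1057 against 310 CPM in WT HFD+HDCA and 474 against 278 CPM in WT HFD. Beside this, the summed NK markers of ILC1 were at 85.2 CPM in WT HFD+HDCA and 62.2 in WT HFD; their part in the S1pr5 difference was not tested. The sum was higher through Itga2 alone, at 62.1 against 31.1 CPM: of the 3 markers with enough UMIs the other two were lower, Eomes among them at 14.1 against 15.6 CPM, and Klra4 and Klra8 were at 0 in both. In iNKT cells S1pr5 was at 10.2 CPM in WT HFD+HDCA (37 UMIs in 16 cells) against 3.14 CPM in WT HFD (9 UMIs in 6 cells), a ratio of 3.27 (1.55 to 7.69). The strict contig rule gave 1.71, and after thinning too few UMIs were left to call. Those few cells held Eomes, a T-box factor of NK cells, with 13 and 8 UMIs in WT HFD+HDCA and WT HFD (105 CPM in WT HFD), against 12 and 3 UMIs in the 434 and 326 iNKT cells without S1pr5 (3.45 and 1.07 CPM).

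Smaller differences were found in S1pr1, Klf2 and Zfp683. S1pr1 was at 41.5 CPM in iNKT cells of WT HFD+HDCA against 60.0 CPM in WT HFD, a ratio of 0.693 (0.553 to 0.867), which passed the 1.5-fold line after thinning (0.586) and under the strict contig rule (0.639). In NK cells it was at 30.2 against 44.7 CPM, and the ratio was 0.677 (0.531 to 0.863). In ILC1 Klf2 was at 444.4 against 300.2 CPM, a ratio of 1.48 (1.29 to 1.70), just under the 1.5-fold line; it was 1.56 after thinning and 2.10 under the strict marker rule. Zfp683 in experienced T cells was at 17.3 against 25.2 CPM, a ratio of 0.685 (0.565 to 0.832); it passed the line under the strict contig rule (0.652) and without the largest clonotypes (0.638). The median log2 ratio of the 8 genes lay between -0.11 and 0.15 in these classes, against -0.03 to 0.02 for all genes.

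The knockout was compared by setting iNKT KO HFD+HDCA over WT HFD+HDCA, again with 1 library each. WT HFD+HDCA is part of both library comparisons, so a value that stands out in it moves them in opposite directions. The knockout label was borne out by receptors, with 1 iNKT cell in the knockout library and 450 in WT HFD+HDCA, and with no Traj18 or Trav11 UMI in its other αβ T cells. Zfp683 was higher in the knockout's other αβ T cells and NK cells, and in ILC1 Klf2 and S1pr5 were lower. Called were 1 of 8 genes in other αβ T cells, 1 in experienced T cells and 1 in NK cells, 2 of 8 in ILC1 and 0 of 6 in naive T cells, where 10.7%, 11.3%, 10.3%, 13.7% and 8.63% of all genes with enough UMIs were called. The median log2 ratio of the 8 genes lay between -0.15 and 0.16, against -0.04 to 0.01 for all genes.

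Zfp683 in experienced T cells was at 74.9 CPM in iNKT KO HFD+HDCA (618 UMIs) against 17.3 CPM in WT HFD+HDCA (228 UMIs), a ratio of 4.33 (3.71 to 5.06). It was 3.59 without the largest clonotype of each library, and 3.66 when contigs of at least 3 UMIs were required. Itga1 stood at 76.1 CPM in the same experienced cells of iNKT KO HFD+HDCA against 31.9 CPM in WT HFD+HDCA. By co-receptor, Zfp683 was at 181.8 against 30.9 CPM in cells with neither, 97.6 against 26.9 CPM in Cd4 cells and 27.2 against 10.1 CPM in Cd8 cells, so the direction was the same in each. S1pr1 was at 93.7 against 129.7 CPM in experienced T cells, a ratio of 0.723 (0.663 to 0.787), and S1pr5 had 21.2 against 28.8 CPM, for a ratio of 0.736 (0.612 to 0.882). Klf2 was at 721.8 against 824.0 CPM, a ratio of 0.876. B cell transcripts in the experienced cells were at 122 CPM in iNKT KO HFD+HDCA and 55.9 CPM in WT HFD+HDCA, and B cells of these libraries held 1.12 and 0.113 CPM of Zfp683. Summed neutrophil markers (S100a8, S100a9 and Retnlg) in all other αβ T cells were at 483 CPM in iNKT KO HFD+HDCA and 171 CPM in WT HFD+HDCA, against 0.408 CPM in WT HFD. In the experienced cells alone they were at 0.364 and 1.97 CPM, with Retnlg at 0, in iNKT KO HFD+HDCA and WT HFD+HDCA.

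In NK cells Zfp683 was at 26.2 CPM in iNKT KO HFD+HDCA (72 UMIs) against 1.63 CPM in WT HFD+HDCA (8 UMIs), a ratio of 16.0 (7.72 to 38.6). The knockout's 44 NK cells with Zfp683 were unlike its 438 without it. They held Eomes at 19.0 against 327 CPM, the summed NK markers at 1436 against 2601 CPM, the summed ILC1 markers at 174 against 27.98 CPM, Itga1 at 127 against 14.0 CPM and Cd3g at 98.3 against 11.1 CPM, while Klf2 was alike at 1452 against 1381 CPM. Alternatives added after these values were seen gave 20.2 without cells holding a Cd3g UMI and 12.0 without cells holding an Itga1 or Cd200r1 UMI. Under the strict marker rule the ratio was 2.74, and in NK cells with an Eomes UMI there were 6 Zfp683 UMIs in 312 cells of iNKT KO HFD+HDCA and 4 in 616 cells of WT HFD+HDCA (ratio 3.15, 0.747 to 15.2), too few to call. Of the 72 Zfp683 UMIs in the knockout's NK cells, 6 lay in cells with detected Eomes. Its level there was 33.3 CPM in mature and 30.6 CPM in immature cells.

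Klf2 in ILC1 was at 294.0 CPM in iNKT KO HFD+HDCA against 444.4 CPM in WT HFD+HDCA, a ratio of 0.662 (0.591 to 0.741). S1pr5 was at 47.2 against 87.7 CPM, and its ratio was 0.538 (0.410 to 0.706). WT HFD, set beside them, gave 300.2 CPM of Klf2 and 23.8 CPM of S1pr5. Neither call held throughout: Klf2 came to 0.742 and S1pr5 to 0.723 under the strict marker rule, and S1pr5 to 0.800 after thinning. The summed NK markers of ILC1 stood at 66.5 CPM in iNKT KO HFD+HDCA against 85.2 CPM in WT HFD+HDCA, and Cd3g at 68.1 against 18.2 CPM. Their part in the difference was not tested. Without cells holding a Cd3g UMI, Klf2 came to 0.686 and was no longer called, while S1pr5 came to 0.545 and was still called. In NK cells Klf2 was slightly higher in the knockout, at 1389 against 1221 CPM, a ratio of 1.14 (1.09 to 1.19). Rgs1 and Cd69 stayed within 1.5-fold in every class of both library comparisons as reported. In the diet comparison Cd69 in ILC1 came to 0.536 (0.369 to 0.770) under the strict marker rule, and Rgs1 in naive T cells to 1.51 (0.967 to 2.38) after thinning.

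**Figure D5:**
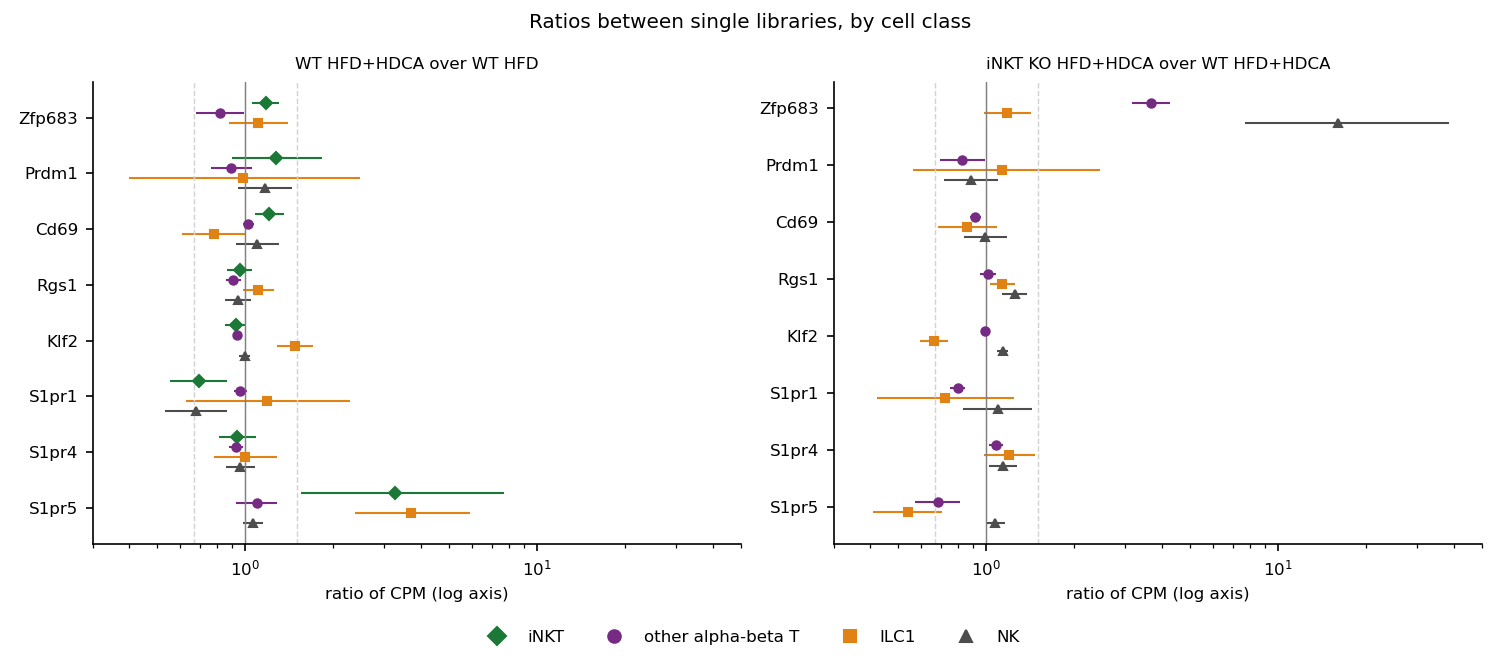
Ratio of CPM between libraries for each gene and class on a log axis, iNKT KO HFD+HDCA over WT HFD+HDCA and WT HFD+HDCA over WT HFD, with conditional exact 95% intervals and dashed lines at 1.5-fold. The widest ratios drawn were Zfp683 in NK cells (16.0) and other αβ T cells (3.67) in the knockout comparison and S1pr5 in ILC1 (3.69) and iNKT cells (3.27) in the diet comparison.

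The genes with patterns most like each member were found by Pearson's r of log2(CPM + 10) over 14 sums of cell class and library, among 8521 genes with at least 500 UMIs. The sums share libraries and classes, so r is a description. Zfp683 was most like Itga1 (0.99), Slc2a8 (0.98) and Serpina3f (0.97), and against Klf2 it gave -0.93. Itga1 helped set the ILC1 and NK classes, so its likeness is partly fixed by the rule. Prdm1 was most like Cdc34, Stard10 and Klra7 (0.96 each after rounding), and Zfp683 and Prdm1 themselves gave 0.02. Cd69 was most like Ikbkb, Rps12 and Ddb2 (0.97 each), and Rgs1 like Acot7, Rgs3 and Sipa1 (0.99 each). Klf2 was most like Fry (0.97), Zfp53 (0.95) and Ssh2 (0.94), and S1pr1 like Tbxa2r, Slamf6 and Foxo1 (0.97 each). S1pr5 was most like Prr5l, Zeb2 and Ptprc (0.98 each). S1pr4, the most even of the members, had the weakest likeness, at 0.91 with Myh9, 0.88 with AB124611 and 0.87 with Bbc3.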

How the data were processed

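The authors' deposited matrices hold raw UMI counts per gene and barcode from Cell Ranger 8.0.1, per the file headers; the submitters' processing notes name mm10 and GRCm39, so no coordinate is taken from the matrices. Contigs came from the deposited receptor tables. Barcodes needed 200 detected genes and a mitochondrial share below 10% (Python 3.11.15, scanpy 1.11.5); Scrublet doublets (3.47% to 4.91%) were removed. UMIs were summed per class and library, given as CPM of the class sum, and class contrasts were fitted with edgeR 4.0.16 (TMM, filterByExpr, library as block); DESeq2 1.42.0 was an alternative. Depth was 46600746, 70776925 and 44332213 UMIs in iNKT KO HFD+HDCA, WT HFD+HDCA and WT HFD. Shares use cells of at least 2000 UMIs, thinned to 2000. Intervals (95%) and floors (3 counts) cover counting error only. The fits were tested on simulated data. Members, lists and rules were chosen with earlier results of these data known. From each list the up to 3 genes with the largest fold change past the threshold are named, and for each member the 3 most alike genes; 1 list gene is not reported here. NK and ILC1 rules left 47 of 906, 34 of 1060 and 19 of 667 pooled cells between the classes in those libraries.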

Additional observations from a re-analysis of the deposited data

Results flagged for a closer look

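Klf2 was lower in ILC1 and slightly higher in NK cells in the knockout comparison. The ratio of iNKT KO HFD+HDCA over WT HFD+HDCA was 0.662 (95% interval 0.591 to 0.741) in ILC1, at 294.0 against 444.4 CPM, and 1.14 (1.09 to 1.19) in NK cells, at 1389 against 1221 CPM. The NK ratio lay within the 1.5-fold line and was 1.09 in NK cells with an Eomes UMI. The ILC1 ratio was not called under the strict marker rule (0.742), with median-ratio scaling (0.679) or without Cd3g cells (0.686). It was still called after thinning (0.637) and without the top cell (0.666). ILC1 of WT HFD, at 300.2 CPM, stood near those of the knockout. With 1 library per group the difference between the classes was not tested.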

How the results depend on the processing

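No result reversed. Of 256 alternative values for the 32 member contrasts 247 kept direction and side of the threshold. Leaving out 1 library, genes past the threshold (higher, lower) ranged from 768 to 1358 (1435 with all) and 849 to 1544 (1580) for iNKT minus other αβ T, 890 to 1107 (1348) and 734 to 946 (1118) for ILC1 minus NK, 2440 to 2610 (3110) and 1909 to 2139 (2612) for experienced minus naive T, and 399 to 944 (1004) and 511 to 1133 (1200) for iNKT minus experienced T; DESeq2 gave 659 higher in the last. Without the replicate block these counts were 1223 and 1368, 1247 and 1041, 2825 and 2261, and 775 and 984. No paired analysis was possible because each group has 1 library in the comparisons between libraries. For iNKT minus experienced T, Cd69 gave -0.33 (adjusted p = 0.06647) without the block and S1pr5 -2.20 (0.05498) with DESeq2. Members past 1.5-fold, HDCA over HFD: iNKT 2 (strict; 1 as reported), NK 1 (strict; 0), ILC1 2 (median-ratio scaling, thinned, without the top cell, without Cd3g cells) and 4 (strict) for 1; experienced T 1 (strict, without the largest clonotypes) and naive T 1 (thinned) for 0. Knockout over WT HFD+HDCA: other αβ T 2 (without the top cell) for 1, NK 0 (Eomes UMI) for 1, ILC1 1 (median-ratio, strict, without Cd3g cells) for 2. The Cd3g, Itga1 or Cd200r1 and Eomes settings were chosen after seeing the data. Pairs under 1 in all libraries: other αβ T 5 (thinned to 1000) for 8, NK 1 (other seed) for 2, ILC1 6 (no thinning) and 1 (1000) for 3, experienced T 3 (1000) for 7. Pairs above 1: iNKT 2 (no thinning) and 1 (1000) for 0, other αβ T 7 (no thinning), 1 (1000) and 1 (other seed) for 2, NK 3 (no thinning) and 2 (other seed) for 1, ILC1 1 (no thinning) for 0, experienced T 5 (no thinning) and 0 (1000) for 1. Where these moved, the cause was not tested. Genes with few UMIs, S1pr5 in iNKT cells and Zfp683 in NK cells, are limited by depth.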
